A study of Rattus norvegicus with 14 samples.

Results

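Glycogen is the branched glucose store of animal cells. UDP-glucose, made by Ugp2, is added to the growing polymer by glycogen synthase (Gys1 in muscle and most tissues, Gys2 in liver and fat), and Gbe1 places the branches. Glycogen phosphorylase (Pygm, Pygb and Pygl, named after muscle, brain and liver) releases glucose units and is switched on by phosphorylase kinase, of which Phka1 is the muscle-type regulatory subunit. Ppp1r3b and Ppp1r3c are targeting subunits that bring protein phosphatase 1 to glycogen, where it activates the synthase and inactivates the phosphorylase.

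These 10 genes were looked up by symbol among the probe sets of the deposited table. The annotation gave 13 probe sets for 9 of them, out of 31042 probe sets tested and 14217 named genes. No probe set carried the symbol Ppp1r3c, so this gene was not analysed here. A gene with several probe sets took the values of the one whose mean over the 14 arrays was highest. The genes were chosen in part from measured values, since earlier results of the same comparison, among them the lower level of Ppp1r3b, were known. The values and counts of Ppp1r3b are therefore a description, and the count over all members is not independent evidence.

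RNA came from the thoracic aorta of Sprague-Dawley rats, with 8 samples labelled A-CRF, in which chronic renal failure was induced by adenine, and 6 labelled Control, and 1 array per sample. The labels used here do not give the dose or duration of adenine, the sex or age of the rats, or whether the fat around the vessel was removed. They do not say either that the samples are different animals. P-values therefore reflect only how these samples spread, and that spread may be technical. All 9 smooth muscle markers were measured over 1 log2 unit above the lowest value of the table (4.82), and the myosin heavy chain Myh11 was between 11.37 and 12.03 on every array. The difference between the 3' and 5' GAPDH control probe sets, which grows when transcripts are shortened, was 1.90 on A-CRF 1, 1.63 on A-CRF 4 and 1.58 on Control 1, against 0.37 to 0.55 on the other arrays. Values below are log2 probe set summaries, with the base inferred from their range. They compare arrays for a given gene, and no level is set against that of another gene.

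The question was which transcripts of glycogen metabolism differ in the aorta of rats with renal failure. Of the 9 measured genes 2 fell, the phosphatase targeting subunit Ppp1r3b and the kinase subunit Phka1, 0 rose and 7 did not pass an adjusted p of 0.05 (limma, adjusted over all 31042 probe sets). Among all tested probe sets 0.789% were lower by the same rule and 1.26% higher, 2.05% in all. Of all 14217 genes, each by its representing probe set like the members, 150 were lower and 275 higher. At an unadjusted p under 0.05, 5 of the 9 genes were lower and 0 higher. The shares and counts given above for all probe sets and genes are for the adjusted p. For counts at an unadjusted p, here and below, the share of all probe sets is not given. Whether such counts are unusual therefore cannot be read from them. The estimate was below 0 for 8 of the 9 genes, the exception being Pygm, with a median of -0.20 log2 units. Among all tested probe sets 52.7% had an estimate below 0 and the median was -0.0020. Among all 14217 genes 51.2% were below 0 and the median was -0.0012. By the exact permutation test, adjusted in the same way, 0 of the 9 genes and 0 of all probe sets passed, and 4 of the 9 were lower at an unadjusted p under 0.05. The smallest p this test could give was 0.00033, which limits what can pass after adjustment over 31042 probe sets.

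**Figure D1:**
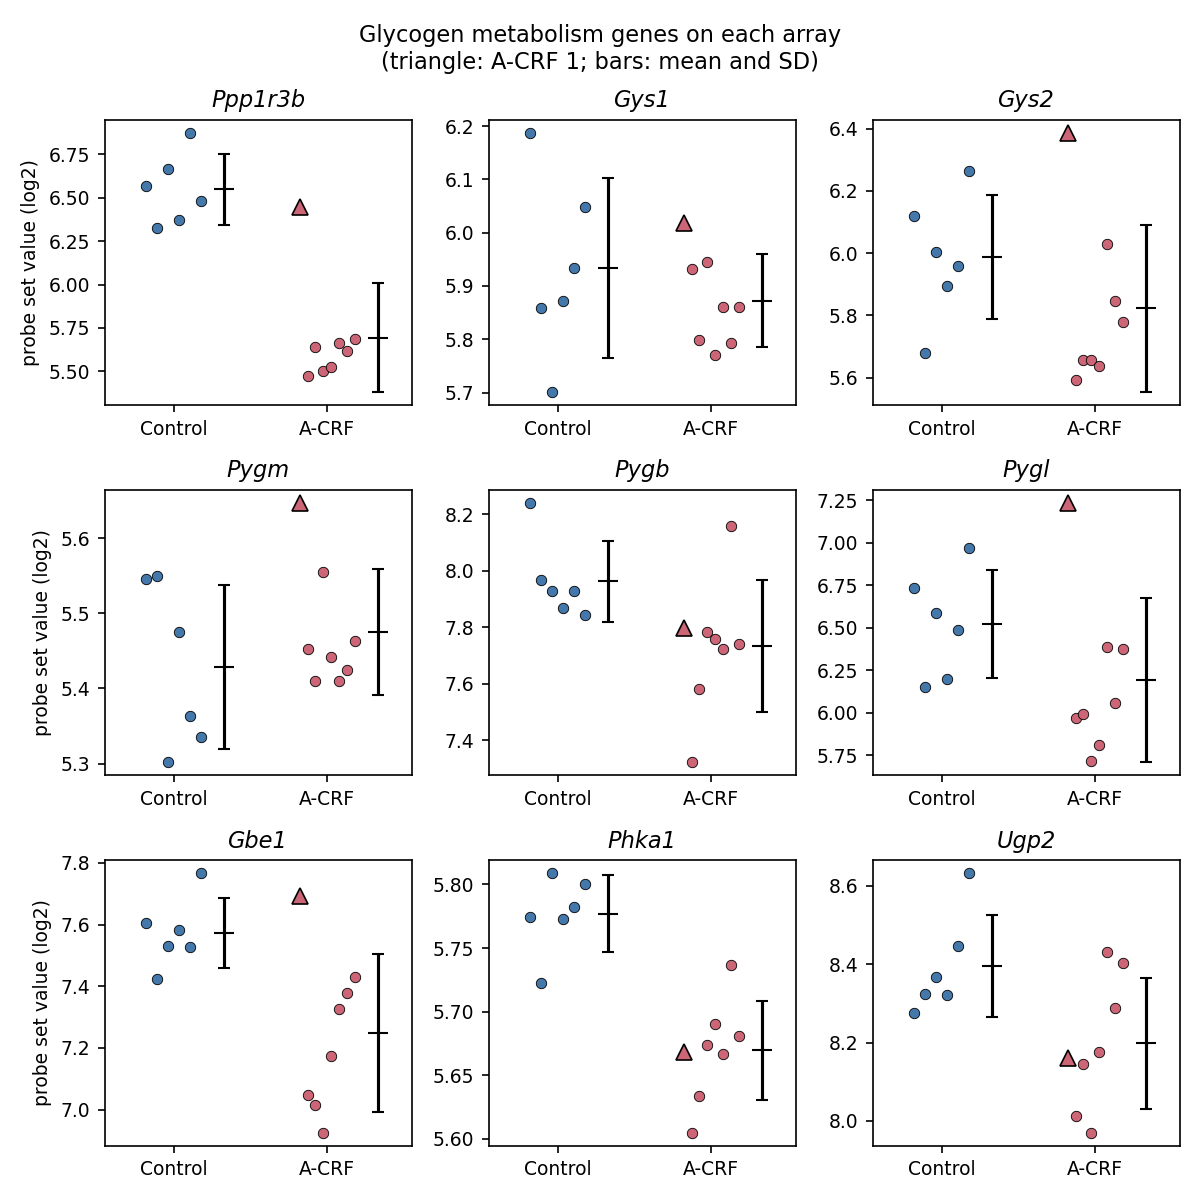
Log2 value of the representing probe set of each of 9 glycogen genes (y axis, a separate scale per gene) on the 6 Control and 8 A-CRF arrays (x axis). Each point is 1 array, the triangle is A-CRF 1, and bars give the mean and SD of a group. For Ppp1r3b 7 of the 8 A-CRF arrays lie below every Control array, and A-CRF 1, at 6.45, lies inside the Control range.

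Ppp1r3b ranged from 5.47 to 6.45 in A-CRF with a median of 5.63, and from 6.32 to 6.88 in Control with a median of 6.52. The groups were separated by a gap except for A-CRF 1, which had 6.45, while the other 7 A-CRF arrays had 5.47 to 5.69. Group means were 5.69 ± 0.31 (SD, n = 8) and 6.55 ± 0.20 (SD, n = 6), a fall by 0.85 ± 0.14 log2 units (SE), or a 1.81-fold lower level. Without A-CRF 1 the A-CRF mean was 5.59 ± 0.09 (SD, n = 7) and the fall 0.96 ± 0.08 (SE), a 1.95-fold lower level. For 1.51% of all tested probe sets at least 7 A-CRF arrays lay below all Control arrays, as they did for Ppp1r3b, Pygb and Phka1. All 8 did so for 0 of the 9 genes and for 0.438% of probe sets, and without A-CRF 1 all 7 did so for Ppp1r3b and for 0.792%. The call held when any 1 of the 14 arrays was left out, with estimates between -0.96 and -0.79. These fits reuse the values by which the gene was known, so they too are a description and not independent evidence. The Control mean lay 1.73 log2 units above the lowest value of the table, 4.82. The 7 A-CRF arrays other than A-CRF 1 were less than 1 unit above it, which limits the size of the fall and their spread.

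The second probe set of Ppp1r3b stayed between 5.02 and 5.13 on all arrays, near the lowest value of the table. Its difference was -0.04 ± 0.02 (SE), of the same sign, and did not pass (limma, adjusted p = 0.26). Averaging both probe sets gave a fall of 0.45 for the gene.

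Phka1 fell by a small amount. Its values were 5.60 to 5.74 in A-CRF, with a median of 5.67, and 5.72 to 5.81 in Control, with a median of 5.78. The groups overlapped only through A-CRF 7 at 5.74 and Control 2 at 5.72. The fall was 0.11 ± 0.02 log2 units (SE; limma, adjusted p = 0.017), a 1.08-fold lower level, and it was the same size without A-CRF 1. The Control mean lay 0.96 log2 units above the lowest value of the table. The other Phka1 probe set differed by -0.02 ± 0.02 and did not pass (adjusted p = 0.87). Of the other phosphorylase kinase subunits, Phkb differed by -0.14 ± 0.05 (SE, limma adjusted p = 0.19) and Phkg1 by -0.05 ± 0.02 (adjusted p = 0.15). Phka2 differed by -0.003 ± 0.02 (limma, adjusted p = 0.98) and Phkg2 by 0.04 ± 0.06 (adjusted p = 0.86). None of them passed, and the Control means of Phkg1 and Phka2 lay only 0.48 and 0.37 above the lowest value.

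On the synthesis side, the branching enzyme Gbe1 had the next clearest separation. It ranged from 6.93 to 7.69 in A-CRF (median 7.25) and from 7.42 to 7.77 in Control (median 7.56). A-CRF 1 was again the highest of its group, at 7.69, and 6 of the 8 A-CRF arrays lay below all Control arrays. The difference was -0.32 ± 0.10 (SE; limma, adjusted p = 0.14). Without A-CRF 1 it was -0.39 ± 0.08 and passed (adjusted p = 0.027), in a fit in which 1.30% of all probe sets were lower and 3.15% passed in either direction. It was the single left-out array with which Gbe1 passed.

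Ugp2, which makes the UDP-glucose that the synthases use, ranged from 7.97 to 8.43 in A-CRF (median 8.17) and from 8.28 to 8.63 in Control (median 8.35). The ranges overlapped, with 5 A-CRF arrays below all Control arrays, and Ugp2 had a difference of -0.20 ± 0.08 (SE, limma adjusted p = 0.23). The synthase Gys1 was at 5.87 ± 0.09 and 5.93 ± 0.17, and its 95% interval for the difference ran from -0.20 to 0.08. Gys2, the liver and fat synthase, had its highest A-CRF value, 6.39, on A-CRF 1 and 5.59 to 6.03 elsewhere in A-CRF, against 5.68 to 6.26 in Control. For neither synthase were the groups separated, and their differences, -0.06 and -0.16, did not pass (adjusted p = 0.78 and 0.63).

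Among the phosphorylases, Pygl showed the widest spread within A-CRF. Its values were 5.71 to 7.23 in A-CRF (median 6.02) and 6.15 to 6.97 in Control (median 6.54), and A-CRF 1 was the highest of all 14 arrays. The difference was -0.33 ± 0.21 (SE, limma adjusted p = 0.55) with all arrays and -0.48 ± 0.15 without A-CRF 1 (adjusted p = 0.10). Pygb, the brain-type enzyme, ranged from 7.32 to 8.16 in A-CRF (median 7.75) and from 7.84 to 8.24 in Control (median 7.93). Only A-CRF 7, at 8.16, was not below every Control array. The difference was -0.23 ± 0.10 (SE, adjusted p = 0.31). Pygm, the muscle enzyme, had the only estimate above 0, 0.05 ± 0.05 (adjusted p = 0.78). All 3 of its probe sets had Control means within 1 log2 unit of the lowest value.

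**Figure D2:**
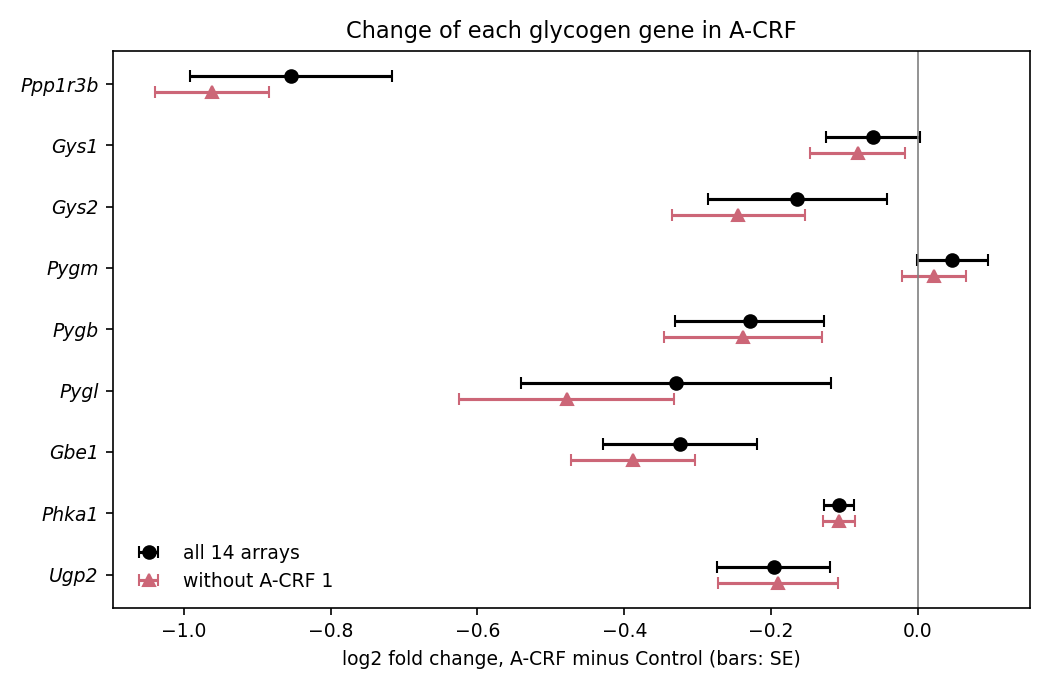
Log2 fold change of each gene, A-CRF minus Control (x axis), with its SE, from limma on all 14 arrays (black circles) and without A-CRF 1 (red triangles). Leaving out A-CRF 1 moved Ppp1r3b from -0.85 to -0.96 and Pygl from -0.33 to -0.48, and left Phka1 at -0.11.

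Among Gys2, Pygl and Gbe1 the correlations over arrays were high in both groups, though those of Gbe1 in Control rested on few arrays. The correlation of Gys2 with Pygl was r = 0.94 and rho = 0.88 in A-CRF (n = 8, exact permutation p = 0.0045 and 0.0072) and r = 0.95 and rho = 1.0 in Control (n = 6, exact permutation p = 0.0056 and 0.0028). Leaving out the 2 arrays farthest from the Gys2 median gave r = 0.60 in A-CRF and 0.94 in Control. Among 72 such relations (36 pairs in each group), 0 had an adjusted p under 0.05, and 9 shared the lowest adjusted p of r, 0.050. With Gbe1, Gys2 had r = 0.86 and rho = 0.71 in A-CRF (n = 8, exact permutation p = 0.0045 and 0.058) and r = 0.91 and rho = 0.83 in Control (n = 6, exact permutation p = 0.024 and 0.058). Pygl with Gbe1 had r = 0.89 and rho = 0.83 in A-CRF (n = 8, exact permutation p = 0.0027 and 0.015) and r = 0.81 and rho = 0.83 in Control (n = 6, exact permutation p = 0.053 and 0.058). Leaving out the 2 farthest arrays gave r = 0.82 in A-CRF and 0.39 in Control for Gys2, and 0.79 and 0.06 for Pygl. The Gys2 relation with Pygl in A-CRF thus rested in part on A-CRF 1 and A-CRF 6. That in Control had r = 0.94 without its extremes, but few arrays were then left, too few to say that it held. Ppp1r3b was related to Pygl in A-CRF with r = 0.94 and rho = 0.88 (n = 8, exact permutation p = 0.0013 and 0.0072, adjusted p = 0.050 and 0.17), and r was 0.93 without the 2 arrays farthest from the Ppp1r3b median. In Control that relation had r = 0.34 and rho = 0.43 (n = 6, exact permutation p = 0.51 and 0.42, adjusted p = 0.71 and 0.77). Ppp1r3b with Gys2 and with Gbe1 had r = 0.91 and 0.80 in A-CRF, and 0.30 and -0.01 in Control. The highest r in A-CRF was that of Pygb with Phka1, 0.97 (rho = 0.79), and 0.82 without A-CRF 2 and A-CRF 7. In Control that pair had r = -0.21.

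The sequences before the start sites of Gys2, Pygl and Gbe1 are shown because the correlations among these 3 genes were high in both groups. None of the correlations passed after adjustment, and other pairs were as high in A-CRF. They are the 250 bases upstream of each start in RefSeq (GRCr8), 5' to 3' on the gene's strand, at chr4:177137237-177137486 (minus strand), chr6:94476220-94476469 (minus strand) and chr11:22181026-22181275 (plus strand). Capitals mark a match to AGGTCA and AGG with any 1 base between them. This is a shortened form of the paired half-sites bound by nuclear receptors such as PPAR and HNF4, with the second half-site cut to AGG.
Gys2: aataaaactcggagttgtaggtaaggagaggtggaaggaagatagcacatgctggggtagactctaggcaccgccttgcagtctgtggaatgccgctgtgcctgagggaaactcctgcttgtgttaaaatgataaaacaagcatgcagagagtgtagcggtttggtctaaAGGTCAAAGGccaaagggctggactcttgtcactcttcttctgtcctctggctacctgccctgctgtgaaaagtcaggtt
Pygl: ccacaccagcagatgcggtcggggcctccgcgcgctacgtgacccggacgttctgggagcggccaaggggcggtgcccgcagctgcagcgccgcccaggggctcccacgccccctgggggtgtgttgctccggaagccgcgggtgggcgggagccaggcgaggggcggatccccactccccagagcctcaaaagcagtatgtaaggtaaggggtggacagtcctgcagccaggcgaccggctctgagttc
Gbe1: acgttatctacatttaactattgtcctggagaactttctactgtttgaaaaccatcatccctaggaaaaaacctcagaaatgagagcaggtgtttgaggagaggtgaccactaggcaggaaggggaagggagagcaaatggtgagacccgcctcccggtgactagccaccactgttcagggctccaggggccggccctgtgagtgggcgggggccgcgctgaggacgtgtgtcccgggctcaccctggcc

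The Gys2 match lay 80 to 71 bases before the start, and this motif, chosen after the sequence was read, was found on either strand in 0.636% of 33469 upstream windows of the same length. No window was found for Ppp1r3b, so the matches below do not cover it. Of the 9 genes with a window, which include the unmeasured Ppp1r3c, this was the only match to that motif. The E-box CACGTG, bound by clock factors and by glucose-responsive factors, was found in 1 of them, Ppp1r3c, and in 5.59% of all windows. The D-box TTATGTAA (0.828% of all windows) and the cyclic AMP element TGACGTCA (1.59%) were found in 0 of the 9. Each motif was searched on both strands, none of these matches overlapped, and a match is a description of letters, not of a bound site.

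The fat around the aorta also stores glycogen, and its markers varied strongly between arrays. In a sample of whole tissue fewer cells of a type and less RNA per cell cannot be told apart. Of 7 measured white adipocyte markers 0 passed, with 0 at an unadjusted p under 0.05, and their mean was 6.64 to 7.95 in A-CRF and 7.05 to 8.0 in Control. Only Lep, the hormone leptin, was less than 1 log2 unit above the table's lowest value. Of 6 brown adipocyte markers 0 passed, also with 0 at an unadjusted p under 0.05, and their mean was 5.80 to 7.22 in A-CRF and 6.28 to 7.35 in Control, with Cox7a1, Ppargc1a and Elovl3 less than 1 unit above that lowest value. The heat-producing carrier Ucp1 was at 9.75 on A-CRF 1 and at 5.31 to 8.42 elsewhere in A-CRF, against 6.88 to 9.07 in Control, so A-CRF 1 had the highest Ucp1 value of all arrays. The brown markers Cidea and Cox8b were highest on Control 6 (10.35 and 8.63), above A-CRF 1 (9.24 and 8.36). The brown mean was also highest on Control 6, 7.35 against 7.22 on A-CRF 1.

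The white adipocyte means of A-CRF 2, 4 and 5 (6.76, 6.64 and 6.84) lay below every Control array, and so did the brown adipocyte means of A-CRF 2, 3, 4 and 5 (5.82, 5.97, 5.80 and 5.98). A-CRF 1, with the highest Ppp1r3b value of its group, had the highest brown mean of its group. With the white adipocyte score as a covariate the estimate of Ppp1r3b was -0.83 ± 0.14 (SE), with the brown adipocyte score -0.76 ± 0.14, and with the brown score and without A-CRF 1 -0.97 ± 0.10. In the brown score each marker weighs the same, also Cox7a1, Ppargc1a and Elovl3 near the lowest value. The score therefore departs from the brown mean: A-CRF 6 had a mean of 6.84 but a score of -0.12. What part the adipocyte markers had in the difference was not tested beyond these fits. Pygl differed by -0.06 ± 0.16 with the brown adipocyte score, against -0.33 without it, and Gys2 by -0.04 ± 0.11, against -0.16.

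Within A-CRF, Pygl was related to the brown adipocyte score with r = 0.87 and rho = 0.83 (n = 8, exact permutation p = 0.0020 and 0.015, adjusted p = 0.11 and 0.39), and r was 0.72 without the 2 arrays farthest from the median score, A-CRF 1 and A-CRF 4. For Ppp1r3b the values were r = 0.77 and rho = 0.83 (n = 8, exact permutation p = 0.0048 and 0.015, adjusted p = 0.13 and 0.39), with r = 0.61 without the same arrays. Against the white adipocyte score Ppp1r3b had r = 0.45 and rho = 0.74 in A-CRF (n = 8, exact permutation p = 0.31 and 0.046, adjusted p = 0.69 and 0.45), and r was 0.50 without A-CRF 4 and A-CRF 6. None of the 54 relations of the 9 genes with the white adipocyte, brown adipocyte and clock gene scores in either group passed after adjustment.

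**Figure D3:**
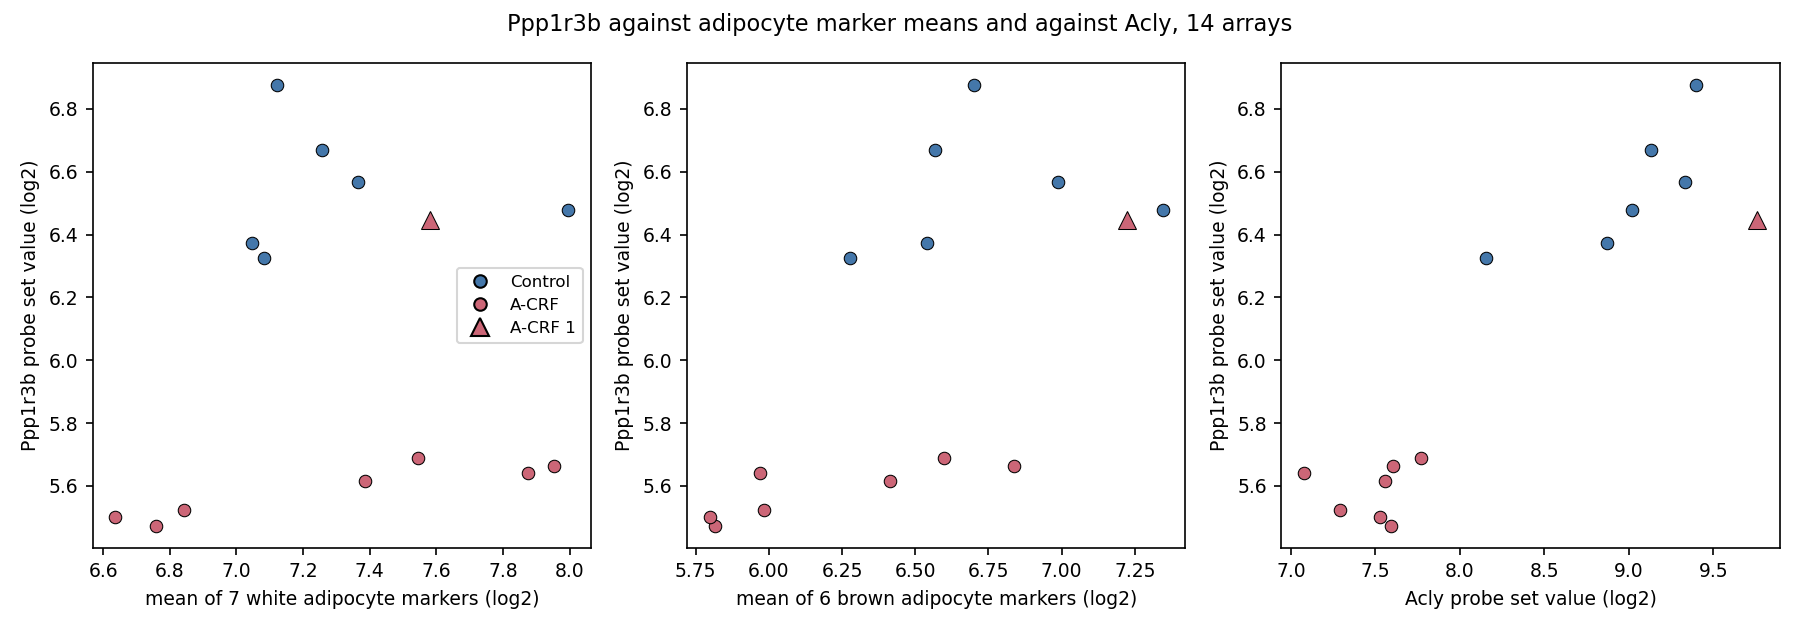
Ppp1r3b (y axis, log2) on each of the 14 arrays against the mean of 7 white adipocyte markers, the mean of 6 brown adipocyte markers and Acly (x axes, log2). Blue points are Control, red points A-CRF and the red triangle A-CRF 1. In Ppp1r3b 7 of the 8 A-CRF arrays lie below every Control array. On the marker axes A-CRF 2, 4 and 5 lie below the lowest Control white mean of 7.05, and A-CRF 2, 3, 4 and 5 below the lowest Control brown mean of 6.28.

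The genes whose array-to-array variation was most like that of Ppp1r3b, after the mean of each group was subtracted, were sought among 9316 candidate genes. The closest was Acly, which makes cytosolic acetyl-CoA from citrate, with r = 0.91 over 14 arrays. It was followed by the glycerol phosphate dehydrogenase Gpd1 (0.90), the pentose phosphate enzyme Tkt (0.89), the DNA demethylase Tet3 (0.86) and the mitochondrial glycerol phosphate dehydrogenase Gpd2 (0.85). Without A-CRF 1 these correlations were 0.65, 0.76, 0.70, 0.55 and 0.54. Since they are the highest of many, no p is given.

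Acly was at 9.76 on A-CRF 1, above every Control array (8.15 to 9.40), and at 7.08 to 7.77 on the other 7 A-CRF arrays, below every Control array. Its difference of -1.21 ± 0.35 (SE) did not pass (limma, adjusted p = 0.093), and neither did that of Gpd1, -1.30 ± 0.42 (adjusted p = 0.14), or of Tkt, -0.74 ± 0.19 (adjusted p = 0.063). For Gpd2 it was -0.40 ± 0.17 (adjusted p = 0.30) and for Tet3 0.01 ± 0.03 (adjusted p = 0.93). The large GAPDH 3' minus 5' difference of A-CRF 1 was shared by A-CRF 4 and Control 1, where Ppp1r3b was 5.50 and 6.57, within the values of the other arrays of their groups. With these 3 arrays left out, A-CRF 1 among them, the fall of Ppp1r3b was 0.94 ± 0.09 (SE), against 0.96 ± 0.08 without A-CRF 1 alone. Whether the GAPDH difference had a part in the Ppp1r3b value of A-CRF 1 was not tested.

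Among other genes of the pathway, 0 of 39 measured genes passed in either direction by limma. At an unadjusted p under 0.05, 6 were lower and 2 higher, and by the exact permutation test 5 and 1. Their median difference was -0.02, and 25 of 39 were below 0. The largest difference was that of the insulin-regulated glucose transporter Slc2a4, with 6.12 to 7.23 in A-CRF (median 6.54) and 6.83 to 7.77 in Control (median 7.12). It differed by -0.62 ± 0.18 (SE, adjusted p = 0.094), and without A-CRF 1, again the highest of its group, by -0.72 (adjusted p = 0.029). Slc2a1, the glucose transporter of most cells, differed by 0.03 ± 0.06, and the hexokinase Hk1 by 0.03 ± 0.08.

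In the other lists the differences were smaller. Of 7 other genes of synthesis, the targeting subunit Ppp1r3d differed most, by -0.19 ± 0.07 (SE, limma adjusted p = 0.21), and the glycogen-binding protein Stbd1 by -0.15 ± 0.04 (adjusted p = 0.099). Gyg1, the protein primer of glycogen, differed by 0.03 ± 0.09. The lysosomal glucosidase Gaa led the 5 genes of breakdown with 0.14 ± 0.09, the protein kinase A subunit Prkaca the 9 genes that control glycogen enzymes with -0.14 ± 0.075, the lipid kinase subunit Pik3ca the 8 of insulin signalling with -0.11 ± 0.05, and Galt the 3 other genes of UDP-glucose with -0.06 ± 0.03. None of these passed (lowest adjusted p = 0.099), and the catalytic subunits of protein phosphatase 1 (Ppp1ca, Ppp1cb and Ppp1cc) differed by 0.08, -0.12 and -0.03.

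Some other cell type markers differed between the groups. Macrophage markers were higher, 7 of 9 past the threshold (Cd68, Csf1r, Adgre1, C1qa, C1qb, Lyz2 and Cd163), with list means of 7.41 to 7.86 in A-CRF and 6.99 to 7.18 in Control and none of the 9 this close to the lowest value. With the macrophage score as a covariate, which separates all arrays by group, the estimate of Ppp1r3b was -0.60 ± 0.29 (SE) and did not pass, and 0 of all probe sets passed. Of 9 skeletal muscle markers 5 had an estimate below 0, and only Ckm, a creatine kinase, passed, with a fall of 0.41 ± 0.08 (SE). The actin Acta1 differed the other way, by 0.43 ± 0.19 (SE, limma adjusted p = 0.30). The skeletal muscle list means were 5.94 to 6.12 in A-CRF and 6.0 to 6.14 in Control. The skeletal muscle markers Myh2, Myh4, Myh7, Tnnt3, Actn3 and Myl11 were less than 1 unit above the lowest value, and with this list's score as a covariate Ppp1r3b fell by 0.86 ± 0.15. Of 9 smooth muscle markers 7 had an estimate below 0, and only Myh11 passed, with a fall of 0.29 ± 0.07 (SE). Eln, elastin, had the largest difference of this list, 0.87 ± 0.37 (SE, limma adjusted p = 0.28), in the other direction. The smooth muscle list means were 9.32 to 9.96 in A-CRF and 9.53 to 10.21 in Control. The part of the smooth muscle and macrophage markers in the differences of the glycogen genes was not tested beyond these fits.

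Clock genes differed too. Of 12 measured, Cry1 fell by 0.86 ± 0.06 log2 units (SE) and Npas2 rose by 0.78 ± 0.18. Cry1 was low on all 8 A-CRF arrays, A-CRF 1 included (6.01, against 6.41 to 6.82 in Control), unlike Ppp1r3b. With the clock gene score as a covariate the estimate of Ppp1r3b was -0.86 ± 0.17 (SE), close to that without it, but it no longer passed (adjusted p = 0.062), in a fit with 45 called probe sets against 636.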

How the data were processed

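Total RNA of 14 thoracic aorta samples was measured on 1-colour arrays, after oligo-dT primed labelling per the labels' protocols. The deposited values are 1 number per probe set, taken as log2. PLIER, a summary method, is named in the submitters' processing notes without a version. Log base, background correction, normalization and any offset: not given in the sources used here. From 31099 probe sets 57 manufacturer controls were left out. Gene names come from the platform annotation, using the 20826 probe sets with 1 symbol.

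A-CRF and Control were compared by limma 3.58.1 (R 4.3.3; lmFit, eBayes, two-sided, Benjamini-Hochberg over 31042 probe sets, threshold 0.05), a method tested on simulated data. The number of arrays limits the precision. Scores are means of markers standardised over 14 arrays, and the clock score subtracts Bmal1, Npas2 and Clock from Dbp, Per2, Per3, Nr1d1, Nr1d2 and Tef. The members and lists were chosen with earlier results of these data known. Other genes were named where they passed the threshold, led their pathway list, or were among the 5 most like Ppp1r3b. The fat and skeletal muscle markers, Eln, Slc2a1, Hk1, Gyg1, Stbd1, Phkb, Phkg1, Phka2, Phkg2 and the phosphatase subunits were named after their values were seen. Lists of endothelial cells, neutrophils, hepatocytes, fibroblasts and Schwann cells had 0 members past the threshold in limma, and 1, 1, 0, 0 and 1 at an unadjusted p under 0.05. Alternatives were offset, scaling, filter, variance model, weights, test, choice of probe set, covariates and left-out arrays. Sequences come from RefSeq (GRCr8).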

Additional observations from a re-analysis of the deposited data

Results flagged for a closer look

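On A-CRF 1 Ppp1r3b was at 6.45, far above the next A-CRF value of 5.69, and Pygl was at 7.23 against a next value of 6.39. Pygb on Control 1 was at 8.24, against 7.97 for the next Control array. These were the arrays that stood apart from their group by Dixon's ratio among 18 gene and group combinations, of which chance flags about 1 in 20. A-CRF 1 also had the highest Ucp1, Acly and Gpd1 values of all arrays, while the brown markers Cidea and Cox8b were highest on Control 6. A-CRF 1 and Control 1 had large GAPDH 3' minus 5' differences (1.90 and 1.58).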

How the results depend on the processing

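Of 32 alternatives, 3 of which were chosen after seeing the data (those with the brown adipocyte score, and the white adipocyte score without A-CRF 1), Ppp1r3b passed in 29 and Phka1 in 28, both below 0 in all. In 14 of the alternatives only 1 array was left out, and all of them reuse the same values, so they are not independent evidence. The count of members lower in A-CRF was 2 with all arrays, 0 with the exact permutation test, the macrophage covariate or the clock covariate (4, 0 and 3 at an unadjusted p under 0.05), and 1 with the brown adipocyte score without A-CRF 1, where Phka1 had an adjusted p of 0.062 in limma. It was 2 to 3 when 1 array was left out, and 3, with Gbe1, both without A-CRF 1 and without it with the white adipocyte score. Other pathway genes lower in A-CRF numbered 0, but 1 with array weights (Slc2a4), 2 with the GAPDH covariate (Slc2a4 and Pgm1), 1 without the 3 arrays of highest GAPDH difference (Pgm1) and 1 without A-CRF 1 with the white adipocyte score (Slc2a4). They numbered 0 to 1 when 1 array was left out, with Slc2a4 without A-CRF 1 and Stbd1 without A-CRF 4. Of all 31042 probe sets, 1457 passed with array weights, 1041 with the GAPDH covariate and 979 without A-CRF 1, against 636 in the main fit. More calls among the pathway genes thus came in fits with more calls among all probe sets. For the other fits that number is not given here. With the macrophage covariate the signs of Gys2 (0.11), Pygl (0.26), Gbe1 (0.11) and Ugp2 (0.10) turned, and with the brown adipocyte score that of Gys1 (0.010, and 0.0051 without A-CRF 1). Pygm was not measured when dim probe sets were left out. The cause of these changes was not tested. No paired analysis was possible because the labels give no replicate numbers that pair A-CRF with Control. Changes of Pygm, Phka1 and other weak signals are limited by their distance from the lowest value.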
